A study of Mus musculus with 8 samples.

Results

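Triglyceride and lipid droplet enzymes were examined in mouse neutrophils that had migrated into air pouches injected with lipopolysaccharide (LPS), a bacterial cell wall product. The set was 10 genes: Gpat3, G0s2, Dgat1, Dgat2, Pnpla2, Abhd5, Plin2, Plin3, Acsl1 and Lpl. It was chosen because Gpat3 and G0s2 separate the 2 control lines of the study in these same arrays. Members were all probe sets that the platform annotation gives to a single listed gene, which yielded 12 of 34472 probe sets and 9 of the 10 genes. No probe set carried Acsl1, a long-chain acyl-CoA synthetase that activates fatty acids, as its single symbol, and Acsl1 was not analysed here.

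The study set neutrophils without Arf6, a small GTPase of membrane traffic, beside 2 kinds of control on Affymetrix Mouse Gene 2.0 ST arrays. The conditional knockout (cKO, labelled flox+/+Cre+/+) had 3 arrays, the Cre control (flox-/-Cre+/+, Cre without the floxed Arf6 allele) had 2, and the flox control (flox+/+Cre-/-, the floxed allele without Cre) had 3. All 8 arrays came from LPS-injected pouches, so no group shows unstimulated cells, and each array held RNA pooled from 5 mice. The promoter that drives Cre, the strain background and the age of the mice are not stated in the sources used here, and a further Cre control pool was not analysed here.

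Titles and genotype labels were followed, because the source field of each sample names another genotype. Arf6 read 6.49, 6.06 and 6.20 (log2 intensity) in the cKO arrays, 7.79 and 7.86 in the Cre controls, and 8.19, 8.20 and 7.68 in the flox controls, so the cKO arrays were the low ones. A second Arf6 probe set overlapped between the groups, at 6.13 to 6.49 in the cKO, 6.33 in both Cre controls and 6.20 to 6.81 in the flox controls. Array medians lay between 5.41 and 5.48 and correlations between arrays between 0.977 and 0.992. Sex-linked transcripts of cKO replicate 1 and flox control replicate 1 differed from those of the other pools, in opposite ways. In cKO replicate 1 Eif2s3y read 4.08, against 8.66 to 10.04 elsewhere, and Xist was highest, at 10.21. In flox control replicate 1 Xist read 5.46, against 7.84 to 10.21 elsewhere, and Eif2s3y read 9.89. The part of sex in the values below was not tested. In cKO replicate 2 several of the genes below lay apart from the other cKO pools, and many values below are given also without it. Neutrophil markers (Ly6g, S100a8, S100a9, Csf3r, Cxcr2, Retnlg, Mmp8, Mmp9, Camp and Ltf) averaged 11.63 to 11.88 in the cKO, 11.54 to 11.55 in the Cre control and 11.76 to 12.02 in the flox control.

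Cells store surplus fatty acids as triglyceride in lipid droplets, organelles with a neutral lipid core under a protein coat. Acyltransferases of the endoplasmic reticulum build triglyceride, perilipins cover the droplet, and adipose triglyceride lipase starts its breakdown. Neutrophils form droplets when activated, and people who lack this lipase carry droplets in their circulating neutrophils. Because the cells were measured in bulk, fewer cells of a type and less RNA per cell cannot be told apart.

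Gpat3 encodes a glycerol-3-phosphate acyltransferase, which catalyses the first committed step of triglyceride synthesis. G0s2 encodes a small protein that binds and inhibits adipose triglyceride lipase. The 250 bases before the RefSeq start of both genes (GRCm38.p6) are shown because these genes set the control lines apart. Gpat3 lies at chr5:100845979-100846228 on the plus strand and G0s2 at chr1:193273189-193273438 on the minus strand, each read 5′ to 3′. Capitals mark motif matches on either strand.
Gpat3: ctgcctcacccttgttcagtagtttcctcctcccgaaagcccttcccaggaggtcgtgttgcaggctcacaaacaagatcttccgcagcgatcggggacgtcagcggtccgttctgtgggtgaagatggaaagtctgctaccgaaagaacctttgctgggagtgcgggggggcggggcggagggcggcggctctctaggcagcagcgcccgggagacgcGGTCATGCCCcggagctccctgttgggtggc
G0s2: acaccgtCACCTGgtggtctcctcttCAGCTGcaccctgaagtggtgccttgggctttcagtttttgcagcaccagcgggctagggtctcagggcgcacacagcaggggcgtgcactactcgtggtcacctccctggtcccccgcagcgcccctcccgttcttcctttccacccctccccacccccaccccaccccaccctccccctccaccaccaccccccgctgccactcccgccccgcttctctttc

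The Gpat3 stretch held 1 match to a loose NF-kB pattern (3 guanines and 2 cytosines around 5 free bases), which 45.8% of the 32851 promoters in the table also held. The G0s2 stretch held 2 matches to the E-box pattern CANNTG, which was present in 66.2% of promoters. TATAAA (12.4% of promoters), the C/EBP pattern TTGCNNAA (9.56%), the AP-1 pattern TGANTCA (6.75%), the cyclic AMP response element (1.55%), the PPAR direct repeat (0.0335%) and CACGTG (6.02%), itself an E-box, were in neither stretch. The guanine and cytosine content was 64.0% for Gpat3 and 67.2% for G0s2, against a median of 52.4% over all promoters.

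Gpat3 read 10.31, 10.45 and 9.94 in the cKO arrays, 8.48 and 9.02 in the Cre controls, and 10.03, 10.20 and 9.84 in the flox controls. Both Cre controls lay below all 6 other arrays, while cKO and flox control arrays were interleaved. The Cre control mean of 8.75 ± 0.38 (SD, n = 2) was 2.42-fold below the flox control mean of 10.02 ± 0.18 (SD, n = 3), a log2 difference of -1.28 (SE 0.20). This difference chose the gene, so it is a description without a test. Against the Cre control the cKO mean of 10.23 ± 0.26 (SD, n = 3) was 2.79-fold higher (log2 1.48, SE 0.20), and it differed from the flox control mean by 0.21 (SE 0.18), 95% interval -0.20 to 0.61. These values rest on the same control arrays that chose the gene and are likewise not tested. A second Gpat3 probe set read 4.27 to 5.27, below the median of all values (5.45) in each array, and was not tested. With the mean of both probe sets the differences were 0.70 for the cKO against the Cre control and -0.58 for the Cre control against the flox control.

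G0s2 followed another order. It read 11.44, 11.57 and 11.26 in the cKO arrays, 10.86 and 10.61 in the Cre controls, and 11.74, 11.71 and 11.66 in the flox controls. The cKO lay between the controls, with no overlap with either. The Cre control mean of 10.74 ± 0.17 (SD, n = 2) lay 1.96-fold below the flox control mean of 11.71 ± 0.04 (SD, n = 3), a log2 difference of -0.97 (SE 0.14). The cKO mean of 11.43 ± 0.16 (SD, n = 3) differed from the Cre control by 0.69 (SE 0.14) and from the flox control by -0.28 (SE 0.12), again without a test. A dimmer G0s2 probe set had the same order of means, 8.05 in the cKO, 7.42 in the Cre control and 8.57 in the flox control, but there cKO replicate 2 (8.39) lay above flox control replicate 3 (8.17).

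**Figure D1:**
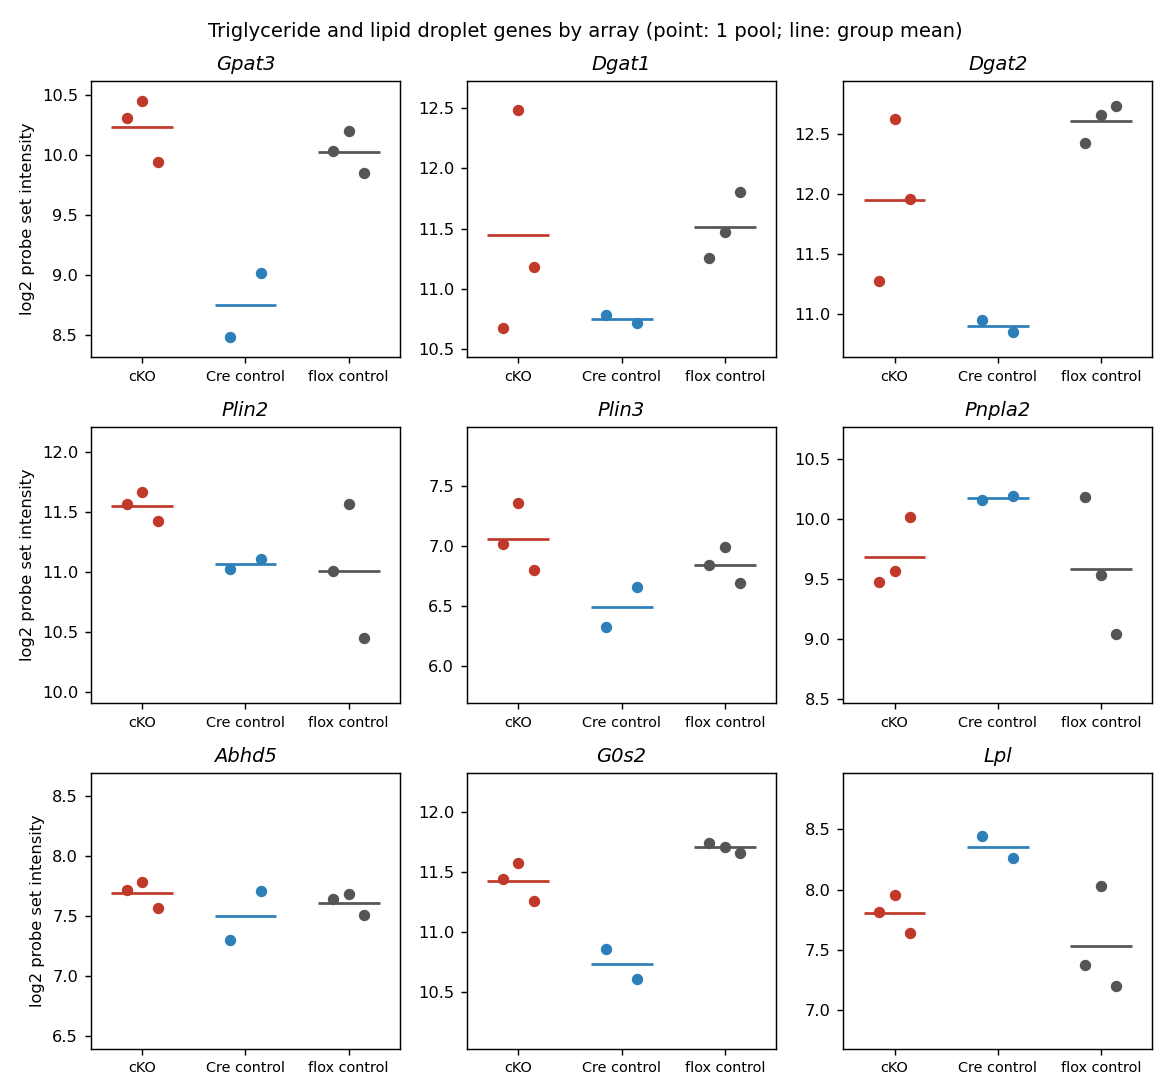
Log2 probe set intensity (vertical axis, 2.3 log2 units in each panel) of 9 genes in the 3 cKO, 2 Cre control and 3 flox control arrays; points are pools and lines are group means. Gpat3, G0s2 and Dgat2 are lowest in both Cre controls, Lpl is highest there, and Dgat1 and Dgat2 are spread widest among the cKO pools.

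Comparing the cKO with the controls jointly, taken as the mean of the control group means, was not what chose the genes, although it uses the same control arrays. For Gpat3 and G0s2, chosen on those arrays, the p-values of this comparison are descriptions and not tests. None of the 9 genes passed an adjusted p of 0.05 in limma, where 0.00714% of the 14002 probe sets tested did, the single call being Arf6. At an unadjusted p under 0.05, 3 of 9 genes (33.3%) were found, Gpat3, Plin2 and Plin3, each higher in the cKO. Of all probe sets 9.52% were found in either direction and 5.26% higher. As the count includes Gpat3, nothing is read from setting it beside these shares. That count was 1 of 9 without cKO replicate 2, against 5.33% of all probe sets, and 1 of 9 without Cre control replicate 1, against 5.03%. The genes' median log2 difference was 0.20, with 7 of 9 above 0, against a median of 0.01 and 53.4% above 0 over all probe sets tested. Gpat3 and G0s2 enter this median and count too, so nothing is read from setting them beside those of all probe sets. Without cKO replicate 2 the median was 0.085, with 5 of 9 above 0, and without cKO replicate 1 it was 0.41. No gene had cKO arrays beyond all 5 controls, which was the case for 4.36% of probe sets.

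Gpat3 had the largest difference of the 9 genes in this comparison, 0.85 (SE 0.16, 95% interval 0.48 to 1.21, adjusted p = 0.239), which the low Cre controls entered. Against the flox control alone it was 0.21 (95% interval -0.20 to 0.61). Because the Cre control arrays helped choose the gene, its p-values here are descriptions. Over the alternatives tried its difference from both controls ran from 0.41 to 0.99. With the mean of both Gpat3 probe sets the difference was 0.41 (adjusted p = 0.443). G0s2 differed by 0.20 (SE 0.11, adjusted p = 0.613).

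Dgat1 and Dgat2 encode unrelated diacylglycerol acyltransferases that both perform the last step of triglyceride synthesis. Dgat2 read 11.28, 12.62 and 11.96 in the cKO arrays, 10.95 and 10.85 in the Cre controls, and 12.43, 12.66 and 12.74 in the flox controls. The Cre controls lay below all other arrays, and cKO replicate 2 alone among the cKO pools reached the flox control range. The Cre control mean of 10.90 ± 0.07 (SD, n = 2) lay 3.27-fold below the flox control mean of 12.61 ± 0.16 (SD, n = 3), a log2 difference of -1.71 (SE 0.31) and the widest of the 9 genes, given without a test. The cKO mean of 11.96 ± 0.67 (SD, n = 3) differed from the Cre control by 1.05 (SE 0.31, adjusted p = 0.217), with all cKO arrays above both Cre controls. From the flox control it differed by -0.65 (SE 0.27, adjusted p = 0.587), by -0.99 (adjusted p = 0.284) without cKO replicate 2 and by -0.32 without cKO replicate 1. Against both controls the difference was 0.20 (SE 0.25, adjusted p = 0.859), and it turned to -0.13 without that pool.

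Dgat1 read 10.67, 12.48 and 11.18 in the cKO arrays, 10.78 and 10.71 in the Cre controls, and 11.25, 11.47 and 11.80 in the flox controls. Its highest and its lowest reading were both in the cKO, in replicates 2 and 1. The cKO mean of 11.44 ± 0.93 (SD, n = 3) differed from the Cre control mean of 10.75 ± 0.05 (SD, n = 2) by 0.70 (SE 0.42, adjusted p = 0.517) and from the flox control mean of 11.51 ± 0.28 (SD, n = 3) by -0.06 (SE 0.37, adjusted p = 0.979). Without cKO replicate 2 these differences were 0.18 and -0.58, and without cKO replicate 1 they were 1.08 and 0.32. Without cKO replicate 2 the difference from both controls, 0.32 (SE 0.34), turned to -0.20, and without cKO replicate 1 it was 0.70. The Cre controls lay below all flox controls, by a log2 difference of -0.76 (SE 0.42).

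The cKO pools took the same order in both Dgat genes, with replicate 2 highest, then 3, then 1. After each group's mean was removed, the correlation of Dgat1 with Dgat2 over the 8 arrays was 0.96, and 22 of 12006 other genes, 0.183%, correlated more closely with Dgat1. Such values describe 8 arrays that share their processing, among 36 pairs of the 9 genes whose correlations ran from -0.29 to 0.96. The highest was that of Gpat3 with Abhd5, at 0.963, and Gpat3 with Plin3 had 0.93. Of the 36 pairs, 5 exceeded 0.8. Gpat3 and G0s2 had 0.14 on this measure, so the likeness of their group means did not extend to single pools.

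Plin2 encodes the perilipin found on droplets of most cell types. It read 11.56, 11.67 and 11.42 in the cKO arrays, 11.03 and 11.10 in the Cre controls, and 11.0, 11.56 and 10.45 in the flox controls. All cKO arrays lay above 4 of the 5 controls, and flox control replicate 2 lay within the cKO range. The cKO mean of 11.55 ± 0.12 (SD, n = 3) differed from the Cre control mean of 11.06 ± 0.06 (SD, n = 2) by 0.48 (SE 0.26, adjusted p = 0.467) and from the flox control mean of 11.0 ± 0.56 (SD, n = 3) by 0.55 (SE 0.23, adjusted p = 0.59). Against both controls the difference was 0.51 (SE 0.21, 95% interval 0.04 to 0.99, adjusted p = 0.487). The difference from the flox control was 0.27 without flox control replicate 3, the lowest reading, and 0.82 without flox control replicate 2. The control groups differed by 0.06 (SE 0.26), Cre control minus flox control, and by -0.22 without that flox control.

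Plin3, a perilipin that moves between cytosol and droplet, read 7.02, 7.36 and 6.80 in the cKO arrays, 6.33 and 6.66 in the Cre controls, and 6.84, 6.99 and 6.69 in the flox controls. The Cre controls were the lowest arrays, and cKO and flox controls overlapped. The cKO differed from the Cre control by 0.57 (SE 0.18, adjusted p = 0.248), from the flox control by 0.22 (SE 0.16, adjusted p = 0.768) and from both by 0.39 (SE 0.15, adjusted p = 0.45). Without cKO replicate 2 the last 2 differences were 0.07 and 0.24. The 8 arrays had the same rank order in Plin3 as in Gpat3, a Spearman correlation of 1.0 and a Pearson correlation of 0.89.

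**Figure D2:**
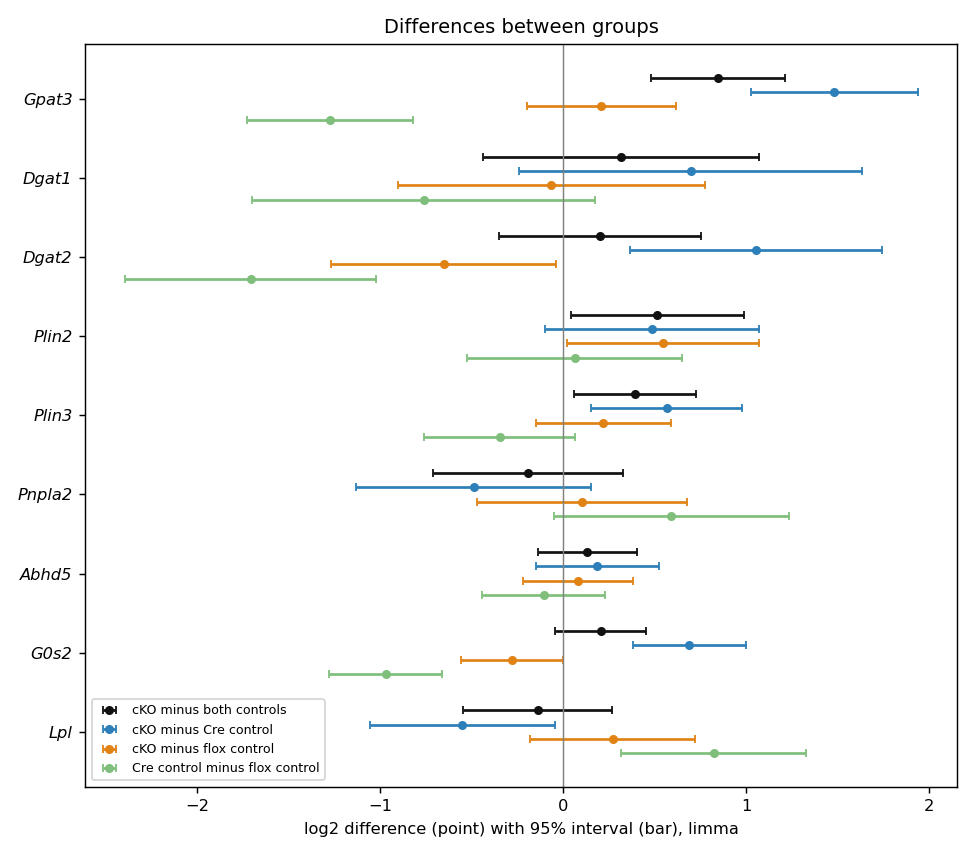
Log2 differences (horizontal axis) of 9 genes in 4 comparisons, with 95% intervals from limma as bars. The widest differences are those of the Cre control from the flox control for Dgat2 (-1.71) and of the cKO from the Cre control for Gpat3 (1.48). All bars of Gpat3 and G0s2, and all bars between the controls, are descriptions.

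Pnpla2 encodes adipose triglyceride lipase, which removes the first fatty acid from triglyceride. It read 9.48, 9.57 and 10.02 in the cKO arrays, 10.16 and 10.20 in the Cre controls, and 10.18, 9.53 and 9.04 in the flox controls. All cKO arrays lay below both Cre controls, while the flox controls spanned nearly the whole range. The cKO differed from the Cre control by -0.49 (SE 0.29, adjusted p = 0.509), from the flox control by 0.10 (SE 0.26, adjusted p = 0.951) and from both by -0.19 (SE 0.23, adjusted p = 0.851). The difference from the flox control turned to -0.17 without flox control replicate 3, and to -0.06 without cKO replicate 3. The Cre control lay 0.59 (SE 0.29) above the flox control on the log2 scale, with overlap, and 0.32 above it without flox control replicate 3.

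Abhd5, also known as CGI-58, encodes the protein that activates adipose triglyceride lipase. It varied least, reading 7.72, 7.79 and 7.57 in the cKO arrays, 7.30 and 7.70 in the Cre controls, and 7.64, 7.69 and 7.51 in the flox controls. The groups overlapped. The cKO differed from the Cre control by 0.19 (95% interval -0.15 to 0.52, adjusted p = 0.657), from the flox control by 0.08 (-0.22 to 0.38, adjusted p = 0.926) and from both by 0.13 (-0.14 to 0.40, adjusted p = 0.794). The difference from the Cre control turned to -0.014 without Cre control replicate 1.

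Lpl encodes lipoprotein lipase, a secreted enzyme that releases fatty acids from circulating triglyceride and is made by macrophages and adipocytes. It read 7.82, 7.95 and 7.64 in the cKO arrays, 8.45 and 8.26 in the Cre controls, and 7.37, 8.03 and 7.20 in the flox controls. The Cre controls were the highest arrays, and the cKO lay within the flox control range. The cKO mean of 7.80 ± 0.16 (SD, n = 3) differed from the Cre control mean of 8.36 ± 0.13 (SD, n = 2) by -0.55 (SE 0.23, adjusted p = 0.328). From the flox control mean of 7.53 ± 0.44 (SD, n = 3) it differed by 0.27 (SE 0.20, adjusted p = 0.764), from both by -0.14 (SE 0.18, adjusted p = 0.868). The difference from the flox control was 0.11 without flox control replicate 3 and 0.52 without flox control replicate 2. The Cre control lay 1.77-fold above the flox control (log2 0.82, SE 0.23), given without a test. A second Lpl probe set read 4.11 to 4.54, below the median of all values in each array, and was not tested.

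Lpl and Plin2 ordered the pools alike within the cKO and within the flox control, but oppositely in the Cre control. Their correlation after group means were removed was 0.91, and 0.616% of 12006 genes correlated more closely with Plin2. Flox control replicate 3 was lowest and flox control replicate 2 highest of its group in both genes. Across groups the genes parted, the Cre controls having high Lpl without high Plin2.

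**Figure D3:**
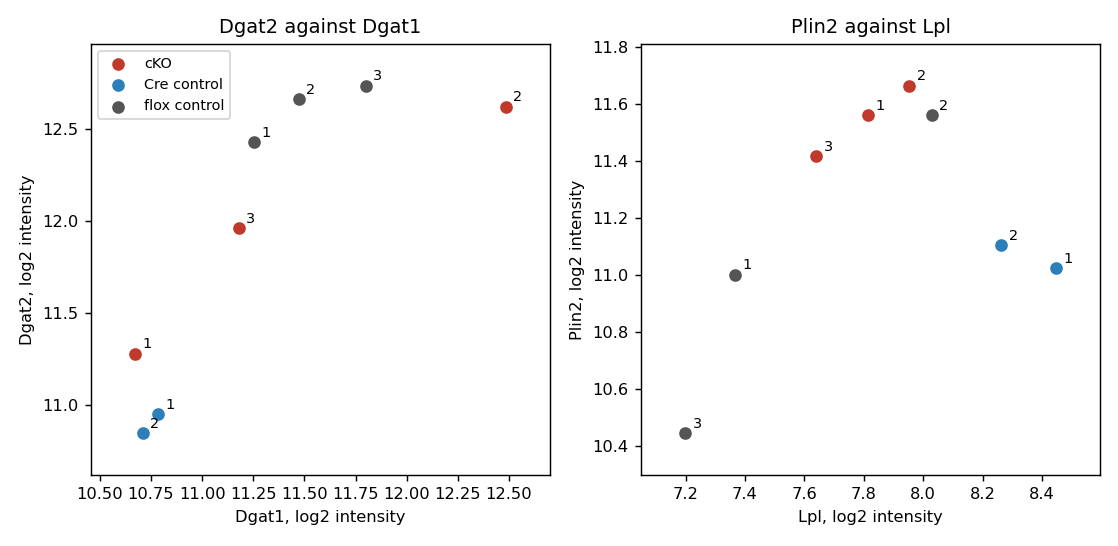
Left, Dgat2 against Dgat1; right, Plin2 against Lpl; log2 intensity on both axes, with a point for each pool coloured by group and numbered by replicate. In the left panel cKO replicates 1, 3 and 2 run from 10.67 to 12.48 in Dgat1 and from 11.28 to 12.62 in Dgat2; in the right panel the Cre controls lie apart, at Lpl of 8.26 and 8.45.

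Markers of other cells were set beside these values. Macrophage markers (11 of 12 listed genes measured) averaged 7.86 to 8.02 in the cKO, 8.18 to 8.20 in the Cre control and 7.70 to 8.12 in the flox control. The complement gene C1qb, a macrophage marker, read 9.15, 9.04 and 8.72 in the cKO arrays, 9.56 and 9.36 in the Cre controls, and 9.03, 9.07 and 7.99 in the flox controls. It was chosen here after its values were seen. Of the 11 macrophage markers, 5 (C1qb, C1qc, Mertk, Mrc1 and Apoe) were higher in both Cre controls than in all other arrays. In the rest (Adgre1, Csf1r, C1qa, Cd163, Fcgr1 and Timd4) the Cre controls overlapped with other arrays. The share of all probe sets higher in both Cre controls than in all other arrays was not computed, so nothing is read from the count. Flox control replicate 3 was lowest for 4 (C1qa, C1qb, C1qc and Mertk), while Adgre1 there, at 10.53, was exceeded only by Cre control replicate 2, at 10.66. For C1qa (7.004, against 7.011 in cKO replicate 1) and Mertk (5.892, against 5.896 in flox control replicate 1) it was nearly a tie. The part of such cells in the Lpl, Plin2 and Pnpla2 values was not tested. Dendritic cell and class II genes averaged 8.31 to 8.66 in the cKO, 8.33 to 8.50 in the Cre control and 7.97 to 8.28 in the flox control. Adipocyte markers averaged 5.35 to 5.56 in the cKO, 5.49 to 5.51 in the Cre control and 5.42 to 5.76 in the flox control, and the defining adipokine genes Adipoq and Lep lay below the median of all values in each array. T and NK cell markers averaged 5.96 to 6.06 in the cKO, 6.04 to 6.31 in the Cre control and 5.65 to 5.81 in the flox control. Mast cell and eosinophil markers averaged 5.68 to 5.97 in the cKO, 5.80 to 5.82 in the Cre control and 5.54 to 5.66 in the flox control. This list, the T and NK cell list and the dendritic cell and class II list were lowest in the flox control. The neutrophil list was lowest and the macrophage list highest in the Cre control. Fibroblast and endothelial lists averaged between 5.72 and 6.86 and overlapped between all groups. No marker in these 8 lists was at 0, and none passed the threshold in a comparison of the cKO.

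Against the Cre control, 0 of the 7 genes open to a test passed an adjusted p of 0.05 in limma, against 0.0714% of all probe sets. At an unadjusted p under 0.05, 3 of 7 (42.9%) were found, Dgat2, Plin3 and Lpl, against 13.5% of all probe sets. The count was 1 of 7 without Cre control replicate 1, against 5.48% of all probe sets, and 5 of 7 in a fit of these 2 groups alone, against 14.9%. Plin2, Plin3 and Dgat2 lay above both Cre controls in every cKO array and Pnpla2 and Lpl below them. These 5 of 7 genes (71.4%) without overlap compare with 34.4% of all probe sets, 18.5% higher and 16% lower. The median of the 7 genes was 0.48, against 0.01 over all probe sets, and 0.18 without cKO replicate 2. The Cre control arrays that helped choose the set enter these counts and medians. Nothing is therefore read from setting them beside those of all probe sets.

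Against the flox control, 0 of 7 genes passed in limma, against 0.0429% of all probe sets. At an unadjusted p under 0.05, 2 of 7 (28.6%) were found, Dgat2 and Plin2, against 8.26%. The count was 0 of 7 when cKO replicate 1 or 3 or flox control replicate 3 was left out, and in a fit of these 2 groups alone. Leaving out either Cre control amounts to that same fit, because a single Cre control adds nothing to the estimate of the spread. None of the 7 was free of overlap, against 12.2% of all probe sets. The median was 0.10, against 0.01. The flox control arrays also helped choose the set, so nothing is read from these counts and this median either. Between the controls, 6 of 9 genes did not overlap, Lpl higher and Gpat3, G0s2, Dgat1, Dgat2 and Plin3 lower in the Cre control, beside 32.7% of all probe sets, 15.3% higher and 17.4% lower. In that contrast 0.486% of probe sets had an adjusted p under 0.05. As the set was chosen on it, nothing is read from these counts.

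The rest of the pathway was described with a list of 81 other genes, of which 72 had a probe set and 63 were bright enough to test. None of the 63 passed an adjusted p of 0.05 against both controls, the Cre control or the flox control. At an unadjusted p under 0.05 in limma the counts were 10, 10 and 7, or 15.9%, 15.9% and 11.1%, against 9.52%, 13.5% and 8.26% of all probe sets. Without cKO replicate 2 they were 4, 8 and 3 of 63, beside 5.33%, 9.37% and 6.51% of all probe sets. Without cKO replicate 3 they were 15, 15 and 13, beside 13.7%, 16.2% and 11.1%. Median differences were 0.05, 0.06 and 0.06, against 0.01 over all probe sets in each comparison. Against both controls 44 of the 63 genes (69.8%) lay above 0, beside 53.4% of all probe sets tested. By role, 11 of 13 regulators and 5 of 8 genes of lipoprotein lipase handling did, and the other roles are given below. The transcription factor Pparg, a regulator of fat storage, and the droplet proteins Cidea and Cidec were among 9 genes too dim to test.

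Among synthesis genes, 8 of 13 lay above 0 against both controls. Agpat4, a lysophosphatidic acid acyltransferase of the following step, was lowest in both Cre controls, as Gpat3 was. Its mean was highest in the flox control (8.93, against 8.72 in the cKO), whereas that of Gpat3 was highest in the cKO. It read 8.68, 8.92 and 8.57 in the cKO arrays, 7.81 and 8.29 in the Cre controls, and 8.92, 8.78 and 9.08 in the flox controls. The cKO differed from the Cre control by 0.67 (SE 0.18, adjusted p = 0.184), and the Cre control from the flox control by -0.87 (SE 0.18). Agpat2, of the same enzyme family, differed by -0.31 (SE 0.22, adjusted p = 0.756) between the cKO and the flox control, with -0.19 without cKO replicate 2 and -0.55 when flox control replicate 3 was left out, and by -0.60 (SE 0.25) between the Cre and flox controls.

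Of 10 coat and assembly genes, 6 lay above 0 against both controls. Hilpda, a hypoxia-induced inhibitor of adipose triglyceride lipase, read 8.57, 10.03 and 8.71 in the cKO arrays, 8.0 and 7.78 in the Cre controls, and 8.08, 8.97 and 8.69 in the flox controls. As with Dgat1, cKO replicate 2 was the highest array. The cKO differed from both controls by 0.87 (SE 0.32, adjusted p = 0.443), and by 0.40 without that pool. It differed from the Cre control by 1.21 (SE 0.40, adjusted p = 0.25), or 0.75 without that pool, and from the flox control by 0.52 (SE 0.36, adjusted p = 0.746), the last becoming 0.06 without that pool.

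Of 8 lipolysis genes, 5 lay above 0 against both controls. Lipa, the acid lipase of lysosomes, read 10.88, 11.33 and 10.66 in the cKO arrays, 9.95 and 10.39 in the Cre controls, and 10.51, 10.37 and 10.44 in the flox controls. All cKO arrays lay above all 5 controls, as 2.11% of all probe sets did. The difference from both controls was 0.65 (SE 0.16, adjusted p = 0.334), from the Cre control 0.79 (SE 0.20, adjusted p = 0.175) and from the flox control 0.52 (SE 0.18, adjusted p = 0.506), the last being 0.33 without cKO replicate 2. Pnpla7, a lysophospholipase, lay 0.60 (SE 0.20, adjusted p = 0.469) above the flox control, and 0.36 above it without cKO replicate 2. Nceh1, a neutral cholesterol ester hydrolase and the 1 gene tested for sterol ester droplets, read 8.0, 7.82 and 7.62 in the cKO arrays, 7.39 and 7.65 in the Cre controls, and 7.01, 7.17 and 6.32 in the flox controls. It differed from the flox control by 0.98 (SE 0.21, adjusted p = 0.315), and from both controls by 0.64 (SE 0.19, adjusted p = 0.369). Without flox control replicate 3, its lowest reading, these differences were 0.72 and 0.51. Nceh1 has 2 probe sets, and the alternatives tried include the mean of both. Over these alternatives the 2 differences fell as low as 0.64 and 0.35. Its difference from the Cre control, 0.29 (SE 0.24), fell as low as 0.05.

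Of 10 genes of fatty acid uptake and activation, 8 lay above 0 against both controls. The acyl-CoA synthetase Acsl5 was low in each cKO array, at 9.13, 8.72 and 9.38, against 9.60 and 9.43 in the Cre controls and 9.52, 9.61 and 9.52 in the flox controls. All cKO arrays lay below all 5 controls, as 2.25% of all probe sets did, and the difference from both was -0.45 (SE 0.15, adjusted p = 0.397), or -0.27 without cKO replicate 2. Slc27a4, a fatty acid transport protein, read 9.77, 10.71 and 9.77 in the cKO arrays, 8.87 and 9.06 in the Cre controls, and 9.72, 10.18 and 10.51 in the flox controls. The Cre controls were lowest, by -1.17 (SE 0.30) against the flox control, and the cKO lay 1.12 (SE 0.30, adjusted p = 0.196) above them. Against both controls Slc27a4 differed by 0.53 (SE 0.24, adjusted p = 0.532), and by 0.22 without cKO replicate 2. The scavenger receptor Cd36 lay 0.59 (SE 0.36, adjusted p = 0.706) above the flox control, and 0.24 above it without cKO replicate 2. The fatty acid binding protein gene Fabp3, which has 2 probe sets, differed from the Cre control by -0.49 (SE 0.19, adjusted p = 0.312). Over the alternatives tried this difference ran from -0.62 to -0.295. In the Cre control Cd36 and Fabp3 exceeded the flox control by 0.93 (SE 0.40) and 0.64 (SE 0.19).

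Apoc2, the apolipoprotein cofactor of lipoprotein lipase, differed by -0.41 (SE 0.16, adjusted p = 0.454) between the cKO and both controls, and by -0.22 without the 2 pools of other sex-linked transcripts. Insig1, which holds sterol-sensing factors in the endoplasmic reticulum, differed by -0.34 (SE 0.13, adjusted p = 0.469), and by -0.19 without cKO replicate 2. Lipg, encoding endothelial lipase, read 12.63, 11.90 and 12.90 in the cKO arrays, 12.88 and 12.71 in the Cre controls, and 12.81, 12.81 and 12.60 in the flox controls. Its difference of -0.29 (SE 0.20, adjusted p = 0.708) was -0.0047 without cKO replicate 2. The triglyceride hydrolase gene Ddhd2 lay 0.31 (SE 0.18) higher in the Cre than in the flox control.

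**Figure D4:**
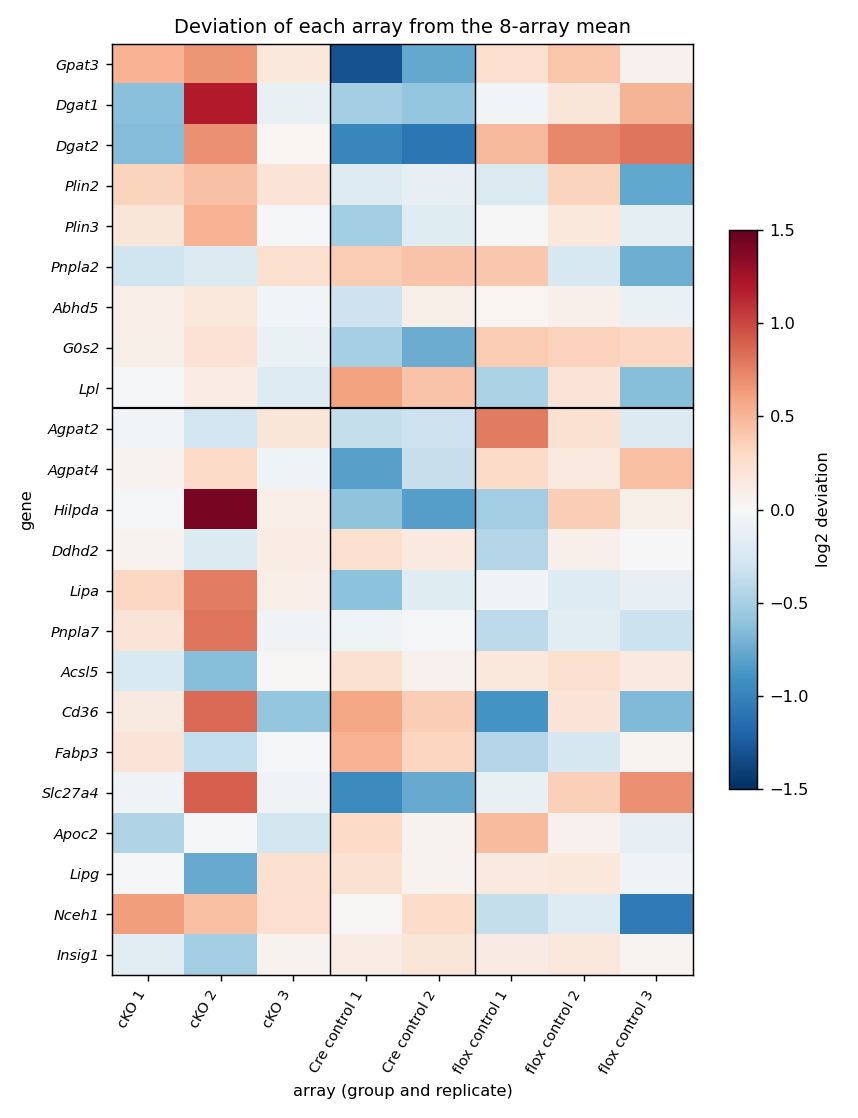
Log2 deviation of each array from the mean of the 8 arrays (colour, -1.5 to 1.5), for 9 genes of the set above the line and 14 named pathway genes below it; columns are cKO, Cre control and flox control arrays. Deviations run from -1.30 (Gpat3, Cre control replicate 1) to 1.43 (Hilpda, cKO replicate 2), and Gpat3, Dgat2, Agpat4, Hilpda and Slc27a4 are low in both Cre controls.

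The genes whose levels most resembled those of Gpat3 over the 8 arrays, among 12006 other genes, were Sesn2 (Pearson r = 0.99), Entr1 (0.99), Osbpl11 (0.99), Kin (0.98) and Tgm1 (0.98). Sesn2, a stress-induced regulator of growth signalling, averaged 9.44 in the cKO, 8.10 in the Cre control and 9.19 in the flox control. Tgm1, a transglutaminase, averaged 10.05, 8.63 and 9.89 in the same order of groups. Within the set Plin3 came closest to Gpat3, at rank 208, and G0s2 had rank 543 (0.82). For G0s2 the closest genes were Ufsp2 (0.98), Coro1a (0.98), Tmem9b (0.97), Rab24 (0.97) and Rnf13 (0.97). Coro1a, an actin-binding coronin of leukocytes, averaged 10.32 in the cKO, 9.92 in the Cre control and 10.49 in the flox control. Within the set Dgat2 came closest to G0s2, at rank 117 (0.89). These likenesses are descriptions of 8 arrays, in which the low Cre controls weigh heavily.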

How the data were processed

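The deposited values are log2 probe set intensities of 8 Affymetrix Mouse Gene 2.0 ST arrays, which the authors background-corrected and normalized by Robust Multiarray Analysis (RMA) in Expression Console, per the series' design text. Its version is not stated there. Each array took 100 ng of RNA, per the labels' protocols, and 98% of cells were positive for Ly6G, per the design text. Whether the pools came from separate experiments beyond separate mice is not stated, so p-values measure the spread between pools. No further scaling was applied.

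Groups came from the genotype labels. Of 34472 probe sets, 23521 carried 1 gene symbol, 1814 several and 9137 none. Tested were the 14002 with 1 symbol that exceeded the overall median (5.45) in at least 2 arrays. Symbols were updated by gene identifier with RefSeq annotation of GRCm38.p6, the source of the promoters too, 7 of the 10 listed genes having 1. A single limma 3.58.1 fit of 3 groups in R 4.3.3 (5 residual and 4.69 prior degrees of freedom) gave two-sided p-values, adjusted by Benjamini-Hochberg over all 14002, threshold 0.05. SE values are from this fit, and SD values are over pools. The brightest probe set stood for a gene. The fit was tested on simulated data with known changes.

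The genes, the pathway and marker lists and the tests were chosen with earlier results of these data known. Named were all genes of the set, pathway genes past the threshold or among the 4 highest and 4 lowest differences of a comparison, and the 5 genes most correlated with Gpat3 and G0s2, without predicted genes and those for microRNAs or small nucleolar RNAs. The fit gives p-values for all probe sets, but none is reported for a gene of the set between the controls, or for Gpat3 and G0s2 against 1 control, since these contrasts chose the set. Those of Gpat3 and G0s2 against both controls are descriptions. Alternatives were other filters, scalings, variance models, array weights, fits and probe set rules, and leaving out arrays. The number of arrays limits the precision.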

Additional observations from a re-analysis of the deposited data

How the results depend on the processing

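Over 17 alternative settings, the counts of 0 genes of the set and 0 of the pathway list past the threshold held in each comparison of the cKO. The lowest adjusted p of any gene of the set was 0.0706, for Gpat3 against both controls without cKO replicate 3. It is a description, because the control arrays that chose the gene enter it. No paired analysis was possible because the arrays carry no replicate numbers that groups share.

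Of 703 alternative values 685 kept their direction and side of the threshold, or moved by less than the spread between pools. Another 14 changed sign, none of them past the threshold. Some of the 685 could not change direction. Filters and variance models leave a difference as it is, as does leaving out an array of a group outside the comparison. For a gene with 1 probe set, the mean of all its probe sets is the same value. The count of 685 is therefore no measure of stability. For the cKO against both controls, Dgat1 and Dgat2 turned to -0.20 and -0.13 without cKO replicate 2, and Pnpla2 to 0.061 without the 2 pools of other sex-linked transcripts. Against the Cre control Abhd5 ran from -0.014 without Cre control replicate 1 to 0.39 without Cre control replicate 2. Against the flox control Dgat1 turned to 0.08 without flox control replicate 3, 0.32 without cKO replicate 1, 0.07 without cKO replicate 3 and 0.19 without the 2 pools. In that comparison Pnpla2 turned to -0.06 without cKO replicate 3 and -0.17 when flox control replicate 3 was left out. Its highest values were 0.40, without flox control replicate 1, and 0.505, with the 2 pools left out. Lpl turned to -0.023 with array weights. Between the controls Abhd5 turned to 0.093 without Cre control replicate 1, and Plin2 to -0.25 with array weights and -0.22 without flox control replicate 3, against 0.34 without flox control replicate 2. With the mean of all probe sets, Gpat3 moved to 0.70 (cKO against Cre control) and -0.58 (Cre control against flox control), as its second probe set is dim. Between the controls Abhd5 moved to -0.31 without Cre control replicate 2 and Lpl to 0.54 with array weights. The causes of the other changes were not tested. With 2 Cre control arrays, each call against that group rests on few pools, and a value without 1 of them assumes that the other varies like the rest.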
